A study of Mus musculus with 64 samples.

Results

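The fatty acid uptake and binding genes described here are 10 (Lpl, Gpihbp1, Cd36, Fabp1, Fabp3, Fabp4, Fabp5, Slc27a1, Slc27a2 and Slc27a5), taken by name from the 19521 genes of the deposited tables and followed over all 64 RNA-seq libraries. The mice were male C57BL/6J, either Pklr-/- (labelled KO) or wild type (CTRL), and received a high-sucrose diet (HSD) or chow for 8 weeks from the age of 8 weeks, up to sacrifice at 16 weeks. Samples came from heart, muscle, liver and white adipose tissue (WAT), which gives 16 groups of 4 libraries. Pklr encodes the pyruvate kinase of liver and red blood cells, and the series title concerns drug repositioning against fatty liver with this enzyme as the target. The labels give no details of the allele and do not say which muscle or fat depot was taken. Libraries of 1 tissue are described as coming from 4 mice per group, so they are treated as separate animals.

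Fatty acids reach a tissue either bound to albumin or inside triglyceride-rich lipoproteins. Lipoprotein lipase (Lpl) is made by the parenchymal cells, is carried to the capillary lumen by the endothelial protein GPIHBP1, and there hydrolyses the triglycerides. CD36 and the fatty acid transport proteins of the SLC27A family then promote uptake and activation of the fatty acids, and the fatty acid-binding proteins (FABPs) hold them in the cytosol. Many of these genes are known targets of the PPAR nuclear receptors, and several serve as textbook markers of 1 tissue.

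Total estimated counts were 5724366 to 12188623 per library. Each tissue expressed all 6 of its own defining markers: the hepatocyte markers summed to 29597.6 to 89802.4 TPM (transcripts corrected for length and library size) over the 16 liver libraries, the adipocyte markers to 14475.6 to 35141.3 TPM in WAT, the cardiomyocyte markers to 20726.1 to 26710.0 TPM in heart and the skeletal myofibre markers to 26575.2 to 35363.1 TPM in muscle. Pklr went against the genotype label, since labelled-KO livers on chow held 211.7 ± 55.2 TPM, against 113 ± 37.1 TPM in those of CTRL, and labelled-KO livers on HSD held 405.1 ± 63.4 TPM, against 212.6 ± 44.8 TPM in those of CTRL (SD, n = 4 each). All genotype directions below therefore follow the labels as deposited. In bulk tissue, fewer cells of a type and less RNA per cell cannot be told apart.

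Each tissue had its own set of abundant genes, and the levels of the same gene differed between tissues by up to several orders of magnitude. Liver was the tissue of Fabp1, Slc27a2 and Slc27a5, WAT that of Fabp4, Lpl, Cd36, Gpihbp1 and Slc27a1, and heart and muscle shared Fabp3. Over the 16 libraries of a tissue, the 4 FABP members together had a median sum of 24518.2 TPM in WAT, 11421.1 TPM in liver, 4348.2 TPM in heart and 3875.2 TPM in muscle. A single FABP made up most of that sum in every library: Fabp4 with 97.9 to 99.1% in WAT, Fabp1 with 92.8 to 99.4% in liver, and Fabp3 with 84.5 to 90.3% in heart and 82.0 to 89.9% in muscle.

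**Figure D1:**
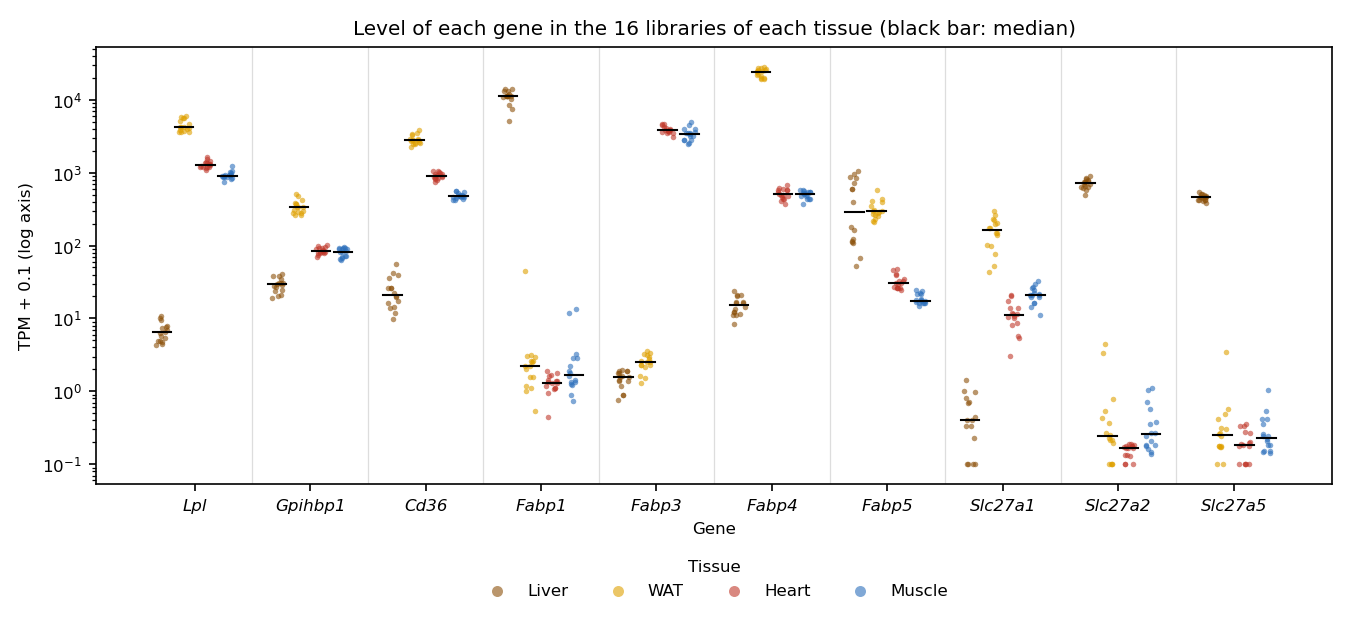
Level of each of the 10 genes in the 64 libraries, as TPM + 0.1 on a log axis; each point is 1 library, colours mark the tissue and black bars the median of 16 libraries. Fabp1, Slc27a2 and Slc27a5 stand alone in liver, Fabp3 in heart and muscle, while Lpl, Cd36, Gpihbp1 and Fabp4 are highest in WAT and lowest in liver.

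Fabp1 (liver FABP, GRCm38 chromosome 6, 71199827 to 71205023) had a lowest, median and highest liver library of 5114.0, 11183.9 and 14072.6 TPM. Its highest library outside liver had 44.4 TPM, so the ranges did not overlap. The bile acid-CoA ligase and transporter Slc27a5 (chromosome 7, 12988346 to 12998192) had 377.7, 456.5 and 539.1 TPM in liver and at most 3.33 TPM elsewhere. The very long-chain acyl-CoA synthetase Slc27a2 (chromosome 2, 126552407 to 126588243) had 489.1, 723.5 and 885.9 TPM in liver and at most 4.31 TPM elsewhere. Outside liver these genes were near 0 in most libraries, and the highest values of Fabp1 stood beside albumin (Alb) RNA. In WAT, labelled-KO chow replicate 3 had 44.4 TPM of Fabp1, 4.31 of Slc27a2 and 3.33 of Slc27a5 with 271.9 TPM of Alb, the highest Alb of the 16 WAT libraries. The ratio of Fabp1 to Alb was 0.163 in that library, below all liver libraries (0.193 to 0.442, median 0.218). The median ratio was 0.0731 in WAT, 0.207 in heart and 0.197 in muscle. In muscle, labelled-KO HSD replicate 4 likewise had 11.9 TPM of Fabp1 with 35.7 TPM of Alb, the highest there, and CTRL chow replicate 2 had 13.3 TPM of Fabp1 with 31.1 TPM of Alb. Slc27a2 also had 3.24 TPM in WAT of labelled-KO HSD replicate 2, where Alb was 26.1 TPM, within the range of the other WAT libraries. The sum of all 6 hepatocyte markers did not follow Alb in WAT, where Alb was a small part of it. The sum was 1701.8 to 2782.0 TPM in labelled KO on chow, the group with the lowest mean, and 4187.4 to 5312.5 TPM in labelled KO on HSD. Most single markers went the other way. Of 5 tested in WAT, 4 had a positive log2 fold change for labelled KO against CTRL on chow (median 1.28, 2 called up and 1 down). For HSD against chow in labelled KO, 1 of 5 was positive (median -1.36, 1 called up). In muscle the hepatocyte marker sum was 43.5 to 81.1 TPM in labelled KO on HSD and 23.2 to 69.2 TPM in CTRL on chow. Whether liver RNA reached these libraries was not tested.

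Fabp3 (heart FABP, chromosome 4, 130308595 to 130315463) had 3066.0, 3818.9 and 4656.5 TPM in heart and 2468.4, 3424.0 and 5030.5 TPM in muscle, and these ranges overlapped. It had at most 3.43 TPM in WAT and 1.87 TPM in liver. Of the 31-base stretches of its annotated transcripts, 50.1% also occur in transcripts of other genes, 35.2% in the pseudogene Fabp3-ps1, and its exons overlap Zcchc17 and Gm10570 on the opposite strand, so its count is less certain than those of the other members. For Slc27a2 the shared part was 10.4%, with an antisense transcript, and for Fabp5 9.27%, mostly with a pseudogene.

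The proximal promoters of Fabp1 and Slc27a2 (liver), Fabp3 (heart and muscle) and Cd36 (low in liver, highest in WAT) are shown because these genes make the tissue contrast visible. Sequences are from RefSeq on build GRCm38.p6 and run from 250 bases before to 50 bases after the annotated start, 5′ to 3′ on the gene's own strand. Capitals mark matches on either strand to 4 motifs: the PPAR and HNF4 type repeat AGGTCANAGGTCA with up to 2 mismatches, the TATA box TATAAA, the HNF1 half-site GTTAAT and the E-box CACGTG, none of which contains another.
Fabp1, chr6:71199629-71199928, plus strand: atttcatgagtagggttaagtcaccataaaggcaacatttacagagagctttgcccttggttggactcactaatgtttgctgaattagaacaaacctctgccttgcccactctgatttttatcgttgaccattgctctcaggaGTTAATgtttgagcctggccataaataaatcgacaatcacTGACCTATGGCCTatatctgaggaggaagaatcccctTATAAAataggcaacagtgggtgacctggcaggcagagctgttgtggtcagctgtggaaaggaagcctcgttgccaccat
Slc27a2, chr2:126552774-126553073, plus strand: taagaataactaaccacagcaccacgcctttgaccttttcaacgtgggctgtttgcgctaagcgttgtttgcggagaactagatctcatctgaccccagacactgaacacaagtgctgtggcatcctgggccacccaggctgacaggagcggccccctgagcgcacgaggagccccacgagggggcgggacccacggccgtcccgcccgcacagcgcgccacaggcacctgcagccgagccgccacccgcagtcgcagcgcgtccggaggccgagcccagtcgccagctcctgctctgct
Fabp3, chr4:130308488-130308787, plus strand: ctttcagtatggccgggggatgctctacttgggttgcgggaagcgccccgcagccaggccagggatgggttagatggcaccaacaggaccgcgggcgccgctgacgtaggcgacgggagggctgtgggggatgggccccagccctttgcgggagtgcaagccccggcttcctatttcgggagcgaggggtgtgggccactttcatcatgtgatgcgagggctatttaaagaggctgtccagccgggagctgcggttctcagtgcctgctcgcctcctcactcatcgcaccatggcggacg
Cd36, chr5:17835847-17836146, minus strand: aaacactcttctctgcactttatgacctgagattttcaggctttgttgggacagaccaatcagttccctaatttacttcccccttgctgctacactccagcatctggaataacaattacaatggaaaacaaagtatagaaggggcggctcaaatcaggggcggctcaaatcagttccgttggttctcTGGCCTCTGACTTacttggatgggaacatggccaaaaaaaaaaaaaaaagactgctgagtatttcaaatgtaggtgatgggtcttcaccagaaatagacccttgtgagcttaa
In Fabp1 the capitals are GTTAAT starting at position -107 from the start, a repeat with 1 mismatch on the opposite strand at -67 and TATAAA at -30. Cd36 has a repeat with 2 mismatches on the opposite strand at -63, and the windows of Slc27a2 and Fabp3 hold none of the 4. The Cd36 window belongs to an annotated start inside the gene, since on the minus strand the gene begins upstream of it, at 17888801. Among 32851 annotated promoter windows of this length, 3.86% have such a repeat, 13.6% TATAAA, 7.1% GTTAAT and 7.15% CACGTG. Matches describe letters only. Of the other members, Slc27a1 has 3 annotated windows, not printed, and Lpl, Gpihbp1, Fabp4, Fabp5 and Slc27a5 have no entry in the table used.

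Lpl (chromosome 8, 68880491 to 68907448) was high in WAT, heart and muscle and low in liver. Its lowest, median and highest libraries were 3581.9, 4208.5 and 6015.7 TPM in WAT, 1088.1, 1287.9 and 1655.6 TPM in heart, 754.6, 913.2 and 1251.4 TPM in muscle and 4.27, 6.32 and 10.9 TPM in liver. Only the heart and muscle ranges overlapped. Gpihbp1 (chromosome 15, 75596628 to 75599481), its endothelial partner, kept a flatter profile with 258.8, 336.7 and 516.9 TPM in WAT, 68.8, 83.3 and 101.2 TPM in heart, 62.4, 82.7 and 96.4 TPM in muscle and 19.1, 29.2 and 40.25 TPM in liver. The order of the summed levels of 8 endothelial markers was the same, with medians of 381.4 TPM in WAT, 172.5 in heart, 142.5 in muscle and 39.6 in liver.

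The scavenger receptor and fatty acid translocase Cd36 (chromosome 5, 17781690 to 17888801) had 2282.6, 2803.4 and 3886.5 TPM in WAT, 747.5, 892.1 and 1042.9 TPM in heart, 426.2, 479.2 and 568.9 TPM in muscle and 9.87, 21.1 and 56.5 TPM in liver. No neighbouring pair of ranges overlapped in that order. The adipocyte FABP gene Fabp4 (chromosome 3, 10204088 to 10208576) had 19289.9, 24258.6 and 28278.1 TPM in WAT, 367.8, 513.4 and 578.2 TPM in muscle, 374.1, 507.7 and 672.0 TPM in heart and 8.23, 15.2 and 23.6 TPM in liver. Muscle and heart overlapped in Fabp4 but not in adipocyte markers, whose 6-gene sum was 81.1 to 289.6 TPM in muscle and 1.20 to 12.6 TPM in heart. The part of adipocytes in muscle Fabp4 was not tested.

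Fabp5 (epidermal FABP, chromosome 3, 10012548 to 10016607) was the member with the widest spread in a tissue where it was abundant. Its lowest, median and highest libraries were 52.55, 287.4 and 1067.8 TPM in liver, 212.9, 293.4 and 571.9 TPM in WAT, 24.5, 30.65 and 47.9 TPM in heart and 14.7, 17.4 and 24.4 TPM in muscle. The liver range enclosed the whole WAT range. The insulin-responsive transporter Slc27a1 (chromosome 8, 71568882 to 71587302) had 43.2, 161.1 and 296.4 TPM in WAT, 11.2, 20.85 and 32.3 TPM in muscle, 2.98, 11.02 and 21.1 TPM in heart and 0.0, 0.301 and 1.35 TPM in liver, where 4 of 16 libraries were listed at 0. Its WAT libraries spread widely within groups, with 43.2, 53.1, 205.4 and 198.6 TPM in labelled KO on chow.

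In CTRL mice on chow, edgeR's quasi-likelihood test on the 64 libraries called 52 of 60 member differences over the 6 tissue pairs (Benjamini-Hochberg adjusted p under 0.05). The same test called 73.0% of 14592 genes for liver over WAT, 70.6% for liver over heart, 72.8% for liver over muscle, 64.5% for WAT over heart, 73.4% for WAT over muscle and 50% for heart over muscle. The 8 differences not called were in WAT over heart (Cd36, Fabp1, Slc27a2, Slc27a5), WAT over muscle (Slc27a5) and heart over muscle (Fabp3, Gpihbp1, Slc27a5). Fabp1, Slc27a2 and Slc27a5 had too few counts to be tested within WAT, heart or muscle, and Fabp3 within liver. The calls of Fabp1 and Slc27a2 between WAT, heart and muscle thus compare low levels. Leaving out 1 library raised the adjusted p to at most 0.171 (Fabp1) and 0.678 (Slc27a2) in WAT over muscle. In heart over muscle it reached 0.745 and 0.451. Cd36 in WAT over heart (0.42 ± 0.20, adjusted p = 0.054) passed with DESeq2 size factors, without the low-count filter, by the DESeq2 Wald test (adjusted p = 0.0159) and by limma (1.79). Size depends on the scale in comparisons with WAT, where the median gene was higher by 1.13 over heart and by 1.05 over muscle in log2(TPM + 1), but by only 0.07 and 0.16 in the scaled counts. Lpl in WAT over heart was a log2 fold change of 0.43 ± 0.19 in scaled counts (adjusted p = 0.039) with 5359.2 ± 893.6 TPM in WAT and 1372.3 ± 200.3 TPM in heart (SD, n = 4 each). That call was lost with the length trend removed (0.35, adjusted p = 0.0927), without the libraries that trend with length (0.31, adjusted p = 0.2) and without any 1 of replicates 2, 3 and 4 of CTRL chow in WAT or in heart (0.36 to 0.42). Fabp5 in liver over WAT changed sign, at 1.03 ± 0.39 in scaled counts (adjusted p = 0.0151) and -0.92 in log2(TPM + 1) (limma, adjusted p = 0.0229). The scaled-count value was 0.21 without liver CTRL chow replicate 3 (adjusted p = 0.62), and the call was also lost with the length trend removed (0.61, adjusted p = 0.15) and without the libraries that trend with transcript length (adjusted p = 0.0796). With the number in the library titles as a block, that value was 0.80 (adjusted p = 0.0504). Fabp3, low in both, changed sign in the same pair.

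For each member, the genes with the most similar profile over the 16 group means of log2(TPM + 1) were looked up by Pearson r, as a description of tissue pattern. Fabp1 was closest to the hepatocyte secretory genes Ttr and Apoa2 (r = 0.9996 and 0.999). Slc27a2 was closest to the gluconeogenic gene Fbp1 and the complement gene Cfi, and Slc27a5 to Ugt2b1 and Amdhd1. Fabp3 was closest to the muscle genes Fndc5 and Trim55, and Gpihbp1 to Thbd, the endothelial thrombomodulin gene, and Kank3. Lpl was closest to Nt5c3b and Cd200, Cd36 to Mzt1 and Cyyr1, Fabp4 to Adam15 and the caveolar gene Cavin1, and Slc27a1 to Dnajc4 and Pmp22. Fabp5 had the loosest neighbours, Rab9 and Fbxo8, at r = 0.975 and 0.973. The 16 means share libraries by tissue, so these values mostly express the tissue contrast.

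The study's diet comparison set HSD against chow. In liver, the Fabp5 mean was several times higher on HSD than on chow in both genotypes, Cd36, Gpihbp1 and Fabp4 had higher means on HSD, and Fabp5 and Cd36 responded more in liver than in any other tissue. Fabp5 had 116.5, 879.0, 955.5 and 857.3 TPM in labelled KO on HSD, against 177.7, 164.5, 108.5 and 52.55 TPM in labelled KO on chow. In CTRL it had 1067.8, 722.8, 605.5 and 590.0 TPM on HSD and 124.0, 68.2, 397.2 and 112.8 TPM on chow. All CTRL HSD libraries lay above all CTRL chow libraries, and 13.4% of all genes had no overlap between these groups, whereas in labelled KO replicate 1 on HSD lay within the chow range.

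Averaged over the genotypes, a contrast added after the data were seen, Fabp5 rose by 2.13 ± 0.47 on the log2 scale with HSD in liver (edgeR, adjusted p = 0.019), 4.37-fold in the fitted scaled counts. The TPM means were 724.3 ± 296.3 on HSD and 150.7 ± 108.3 on chow (SD, n = 8 each). Gpihbp1 rose by 0.32 ± 0.09 (adjusted p = 0.0476). These were 2 of 9 members tested, where 5.59% of 11259 genes were called. The Fabp5 call held with any 1 of the 16 libraries left out, with log2 fold changes of 1.99 to 2.54. It did not pass with a score of circadian clock genes as covariate (2.14 ± 0.57, adjusted p = 0.0619). That score averaged 2.70 in labelled KO on HSD and 1.48 in labelled KO on chow, and -1.09 in CTRL on HSD and 2.04 in CTRL on chow, so it moved with diet in opposite directions in the genotypes.

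**Figure D2:**
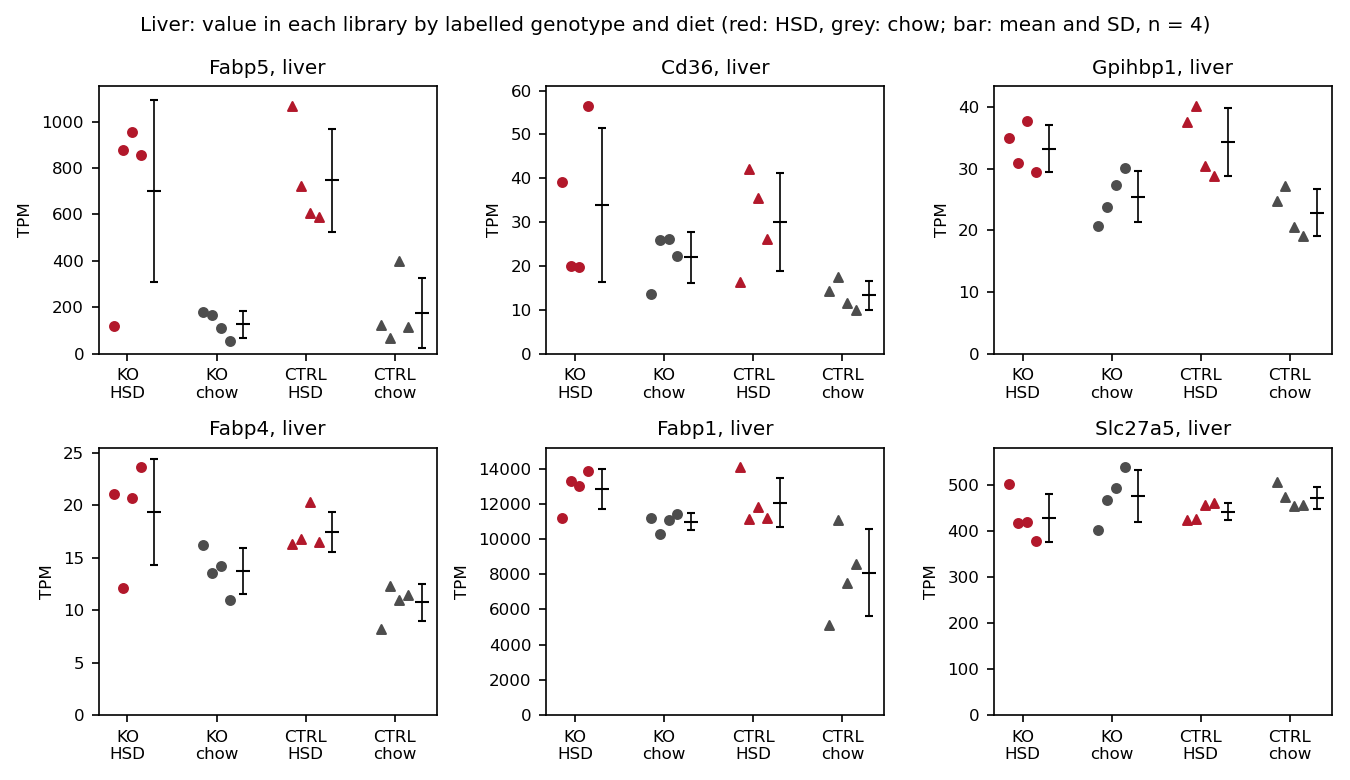
Liver TPM of 6 members in each library, by labelled genotype and diet, with mean and SD of 4 libraries per group. Fabp5 is higher in 7 of the 8 HSD libraries than in all chow libraries. Labelled-KO HSD replicate 1, at 116.5 TPM, is the exception, and CTRL chow replicate 3, at 397.2 TPM, is the highest chow library.

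Within 1 genotype, as the study's groups are laid out, no member passed in liver in the main edgeR fit. The DESeq2 Wald test called Cd36, Fabp5 and Gpihbp1 in CTRL and Fabp5 (adjusted p = 0.0298) and Slc27a5 (adjusted p = 0.0202) in labelled KO, and limma called Fabp1, Fabp4, Fabp5 and Gpihbp1 in CTRL. In edgeR the Fabp5 effect was 2.31 ± 0.67 in labelled KO (adjusted p = 0.23) and 1.94 ± 0.66 in CTRL (adjusted p = 0.108), where 0.00888% and 4.67% of genes were called. Without labelled-KO HSD replicate 1 the effect in labelled KO was 2.67 ± 0.57 and passed (adjusted p = 0.04). Without CTRL chow replicate 3, the high chow library, that in CTRL was 2.77 and passed (adjusted p = 0.0373), and it also passed without replicate 1 of labelled KO on HSD (1.94, adjusted p = 0.0486), which shares the estimate of spread. Labelled-KO HSD replicate 1 was also low in the lipogenic genes Scd1 and G6pdx. Scd1 had 4189.5 TPM there and 9009.0 to 10246.6 TPM in the other labelled-KO HSD libraries, and G6pdx had 4.10 TPM there, 30.98 to 45.6 TPM in the other labelled-KO HSD libraries and 1.90 to 4.10 TPM in labelled KO on chow. CTRL chow replicate 3 had 3.63 TPM of G6pdx, the highest of its group but below all CTRL HSD libraries, which had 20.6 to 56.4 TPM.

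Cd36 in liver was 39.1, 20.04, 19.9 and 56.5 TPM in labelled KO on HSD, against 13.7, 26.0, 26.2 and 22.2 TPM in labelled KO on chow. In CTRL it was 16.3, 42.2, 35.5 and 26.1 TPM on HSD and 14.3, 17.4, 11.6 and 9.87 TPM on chow. The groups overlapped in both genotypes. The log2 fold change was 0.84 ± 0.25 averaged over the genotypes (adjusted p = 0.0669) and 1.13 ± 0.36 in CTRL (adjusted p = 0.0852). Neither passed in the main edgeR fit, but the effect in CTRL did with only the 8 libraries compared (1.13, adjusted p = 0.0452). The averaged effect passed when replicate 2 or 3 of labelled KO on HSD, or replicate 1 of CTRL on HSD, was left out. The effect in CTRL passed without replicate 4 of labelled KO on HSD (adjusted p = 0.0354) and without replicate 1 of CTRL on HSD (1.33, adjusted p = 0.0499). By the DESeq2 Wald test it passed in both, with adjusted p = 0.00772 and 0.0126.

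Gpihbp1 had the smallest p of the members in CTRL liver. It was 35.0, 30.9, 37.8 and 29.5 TPM in labelled KO on HSD, against 20.7, 23.7, 27.4 and 30.2 TPM on chow, and 37.7, 40.25, 30.4 and 28.9 TPM in CTRL on HSD, against 24.8, 27.2, 20.5 and 19.1 TPM on chow. In CTRL the groups did not overlap, as for 13.4% of all genes, and the log2 fold change was 0.43 ± 0.13 (adjusted p = 0.0599). The averaged call above was lost in 13 of the 16 fits that leave out 1 library, and without the low-count filter (adjusted p = 0.0816). Of 8 endothelial markers, 2 rose on HSD in the averaged contrast, 7 of 8 had a positive log2 fold change (median 0.28), and their sum was 38.9 to 51.6 TPM on HSD and 27.6 to 46.0 TPM on chow. The part of endothelial content in Gpihbp1 was not tested.

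Fabp4 in liver was 21.1, 12.1, 20.7 and 23.6 TPM in labelled KO on HSD, against 16.2, 13.5, 14.2 and 10.96 TPM on chow, and 16.3, 16.8, 20.4 and 16.5 TPM in CTRL on HSD, against 8.229, 12.32, 11 and 11.5 TPM on chow. The averaged effect was 0.46 ± 0.15 (adjusted p = 0.088), and it passed without labelled-KO HSD replicate 2 (0.54, adjusted p = 0.0323). Macrophages also express Fabp4, and the macrophage marker sum was 52.7 to 88.8 TPM on HSD and 39.6 to 108.7 TPM on chow, with no marker of 6 tested passing. Adipocyte markers summed to 6.91 to 12.4 TPM on HSD and 5.22 to 13.3 TPM on chow. The part of these cells in liver Fabp4 was not tested. Fabp1 was 11195.6, 13268.7, 12990.3 and 13885.4 TPM in labelled KO on HSD, against 11172.1, 10275.7, 11079.3 and 11411.2 TPM on chow, and 14072.6, 11126.7, 11843.2 and 11210.1 TPM in CTRL on HSD, against 5114.0, 11098.0, 7513.3 and 8602.5 TPM on chow. The lowest, CTRL chow replicate 1, also had the lowest hepatocyte marker sum of the 16 livers, 29597.6 TPM. The Fabp1 effect in CTRL was 0.45 ± 0.18 (adjusted p = 0.173). Slc27a5 had a negative log2 fold change, at -0.24 ± 0.07 averaged (adjusted p = 0.0548), which passed without labelled-KO HSD replicate 1 (-0.27, adjusted p = 0.0193). Slc27a2, Lpl and Slc27a1 had averaged log2 fold changes of -0.21 ± 0.10, 0.24 ± 0.19 and -0.55 ± 0.71, none of which passed.

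Whether the diet acted differently in liver than in the other tissues was tested in the 64-library fit on the effect averaged over the genotypes. Fabp5 responded more in liver than in WAT by 1.83 ± 0.38 on the log2 scale (adjusted p = 0.00094), more than in heart by 2.46 ± 0.40 (adjusted p = 0.000113) and more than in muscle by 2.45 ± 0.41 (adjusted p = 0.000139). Cd36 responded more in liver than in WAT by 0.94 ± 0.20 (adjusted p = 0.00108), than in heart by 0.88 ± 0.20 (adjusted p = 0.00794) and than in muscle by 0.99 ± 0.20 (adjusted p = 0.00145). Fabp4 responded more in liver than in heart by 0.66 ± 0.17 (adjusted p = 0.026).

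These 7 were the calls among 60 member tests over the 6 tissue pairs. Of all 14592 genes, 10.6% were called for liver minus WAT, 1.84% for liver minus heart, 4.24% for liver minus muscle, 1.17% for WAT minus heart, 5.07% for WAT minus muscle and 0.0% for heart minus muscle, where 8.14% had an unadjusted p under 0.05. The calls of Fabp5 and Cd36 held without any 1 of the 64 libraries, that of Fabp4 in 61 of 64 such fits, and it was lost without liver labelled-KO chow replicate 4, labelled-KO HSD replicate 4 or CTRL chow replicate 1. In TPM the median gene also moved differently, by 0.22 for liver minus WAT and 0.17 for liver minus heart, and all 7 differences passed there too.

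**Figure D3:**
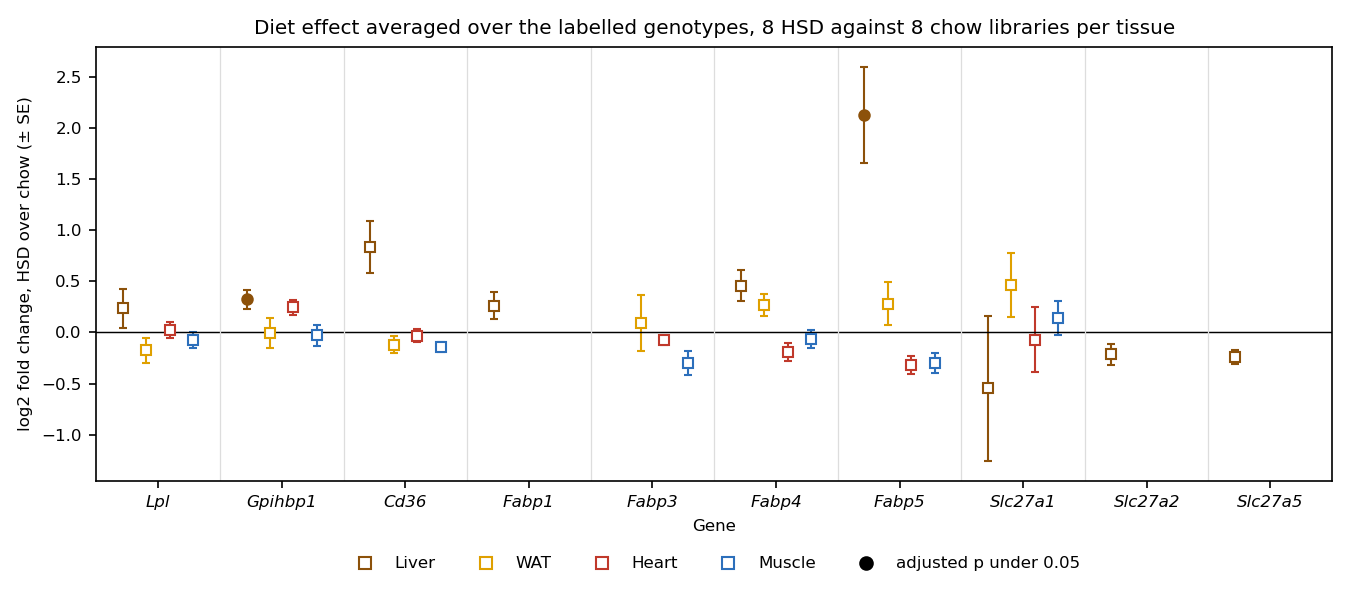
Log2 fold change of HSD over chow, averaged over the labelled genotypes, for each member tested in each tissue, with its standard error; filled circles passed an adjusted p of 0.05. Fabp5 and Gpihbp1 in liver are the filled points, and the liver points of Fabp5 and Cd36 lie apart from those of the other tissues.

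Outside liver no member passed for HSD against chow in edgeR. In the averaged contrast other tools called some: the DESeq2 Wald test Fabp4 in WAT (0.28, adjusted p = 0.0394) and Cd36 in muscle (-0.14, adjusted p = 0.0486), and limma on log2(TPM + 1) Cd36 (-0.28) and Lpl (-0.32) in WAT and Fabp4 (-0.34) and Fabp5 (-0.44) in heart. Fabp5 in heart was 26.2, 26.2, 25.7 and 24.5 TPM in labelled KO on HSD, against 34.8, 30.8, 32.8 and 45.6 TPM on chow. In CTRL heart it was 32.2, 27.0, 30.5 and 26.1 TPM on HSD, against 38.8, 29.9, 40.6 and 47.9 TPM on chow. The averaged effect was -0.32 ± 0.09 in heart (adjusted p = 0.178) and -0.30 ± 0.10 in muscle (adjusted p = 0.152), with 27.3 ± 2.63 TPM on HSD and 37.6 ± 6.73 TPM on chow in heart and 16.9 ± 1.95 TPM on HSD and 20.3 ± 3.21 TPM on chow in muscle (SD, n = 8 each). Neither passed in edgeR, where 0.173% and 1.12% of genes did. In WAT the Fabp5 effect was 0.28 ± 0.21 (adjusted p = 0.434).

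Gpihbp1 in heart was 83.9, 79.1, 94.7 and 87.1 TPM in labelled KO on HSD, against 68.8, 80.6, 82.7 and 80.2 TPM on chow, the smallest p of a member there (log2 fold change 0.29 ± 0.10, adjusted p = 0.396). Cd36 in muscle was 457.0, 475.6, 426.3 and 482.7 TPM in labelled KO on HSD, against 456.9, 519.8, 545.1 and 564.1 TPM on chow (-0.18 ± 0.07, adjusted p = 0.469). Fabp3, the main FABP of both striated tissues, had averaged HSD effects of -0.08 ± 0.05 in heart and -0.30 ± 0.12 in muscle. No member of 7 tested passed in edgeR in heart or in muscle, in any of the 5 comparisons planned for each. HSD against chow called 0.14% of all genes in labelled-KO heart and 0.0247% in CTRL heart, and 0.00827% in labelled-KO muscle and 0.091% in CTRL muscle.

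In WAT, the tissue with the highest summed TPM of these genes, no member passed for HSD against chow in edgeR either. HSD against chow called 6.38% of 13255 genes in labelled KO, 4.77% in CTRL and 11% averaged over the genotypes, and none of the 7 members tested, in edgeR. At such shares, the lack of a call among 7 members does not set them apart from other genes. Fabp4 had 23860.6, 24656.6, 24924.3 and 27524.2 TPM in labelled KO on HSD, against 19289.9, 21600.0, 28278.1 and 25430.1 TPM on chow, and 22866.8, 20083.9, 25702.7 and 26828.9 TPM in CTRL on HSD, against 27015.5, 21445.6, 20088.4 and 19432.9 TPM on chow. The groups overlapped in both genotypes, and the averaged effect was 0.27 ± 0.11 (adjusted p = 0.129). Without CTRL chow replicate 1 it was 0.34 and passed (adjusted p = 0.0477).

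Lpl in WAT had 3956.0, 4189.1, 3755.9 and 4721.2 TPM in labelled KO on HSD, against 5168.3, 5591.3, 4265.1 and 3656.1 TPM on chow, and 3790.3, 3581.9, 4227.9 and 3645.0 TPM in CTRL on HSD, against 4040.1, 6015.7, 5639.9 and 5741.2 TPM on chow. Cd36 had 2282.6, 2443.0, 2782.9 and 2660.2 TPM in CTRL on HSD, against 3372.5, 3886.5, 2909.4 and 3513.9 TPM on chow, with no overlap, as for 20% of genes. In log2(TPM + 1), limma called both lower on HSD in CTRL (Lpl -0.48, Cd36 -0.42), while the median gene there was at -0.17. In edgeR's scaled counts the effects were -0.32 ± 0.17 for Lpl and -0.22 ± 0.12 for Cd36 and did not pass.

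Gpihbp1 in WAT averaged 325.6 ± 37.1 TPM on HSD and 365.3 ± 97.8 TPM on chow (SD, n = 8 each), an effect of -0.01 ± 0.14. The 8 endothelial markers summed to 256.8 to 372.6 TPM on HSD and 390.2 to 608.4 TPM on chow, without overlap, and 5 of the 8 fell in the averaged contrast. Their part in the Gpihbp1 values was not tested. Slc27a1 had 296.4, 222.5, 260.5 and 174.7 TPM in labelled KO on HSD, against 43.2, 53.1, 205.4 and 198.6 TPM on chow. Its log2 fold change there was 0.97 ± 0.44 (adjusted p = 0.202), with overlapping groups.

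**Figure D4:**
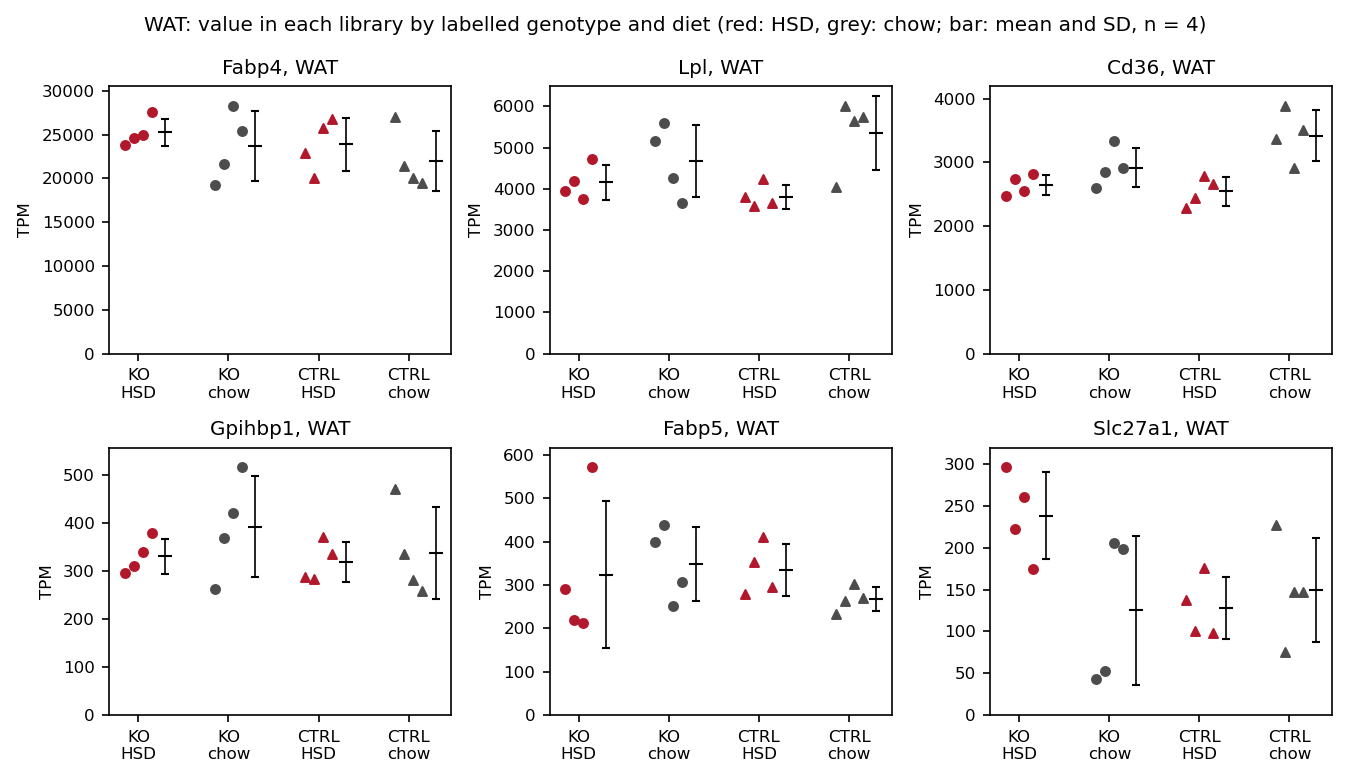
WAT TPM of 6 members in each library, by labelled genotype and diet, with mean and SD of 4 libraries per group. The groups overlap for Fabp4, Fabp5 and Gpihbp1 in both genotypes, CTRL libraries on HSD lie below those on chow for Cd36, and Slc27a1 spreads widely within groups.

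No member passed between the labelled genotypes in edgeR, DESeq2 or limma. In the comparisons of labelled KO with CTRL, none of the 9 members tested in liver and of the 7 tested in each other tissue passed, on chow or on HSD. Of all genes tested, 0.0% passed on chow and 0.0711% on HSD in liver, 6.68% and 0.106% in WAT, 0.0% and 0.0412% in heart, and 0.0% on both diets in muscle. The CTRL livers on chow include replicate 1, which lay further from the other replicates of its group than any other library. At an unadjusted p under 0.05 there were 3 members in liver on chow, where 12.2% of genes reached it. Cd36 was 0.82 ± 0.36 (adjusted p = 0.38), with the libraries given above, and Fabp1 0.49 ± 0.18 (adjusted p = 0.301). Slc27a1 was -2.58 ± 0.93 (adjusted p = 0.284), from 0.132, 0.0, 0.719 and 0.0 TPM in labelled KO, against 0.231, 0.864, 0.898 and 1.35 TPM in CTRL, at most 26.65 counts per library over the 16 livers.

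In WAT the smallest genotype p on HSD was that of Slc27a1, with 238.5 ± 52.2 TPM in labelled KO, against 128.1 ± 37.0 TPM in CTRL (SD, n = 4 each; 0.94 ± 0.44, adjusted p = 0.468). In muscle on chow it was that of Lpl, with 754.6, 819.9, 928.0 and 990.2 TPM in labelled KO, against 1251.4, 1050.8, 838.6 and 866.9 TPM in CTRL (-0.26 ± 0.11, adjusted p = 0.405). In heart no member reached an unadjusted p of 0.05 in either genotype comparison. The interaction of genotype and diet, a test of unequal diet effects in labelled KO and CTRL, called no member in any tissue, with the smallest adjusted p among members at 0.75 in liver, 0.414 in WAT, 1.0 in heart and 0.758 in muscle. Of all genes, 0.573% passed that test in WAT, 0.00824% in heart and 0.0% in liver and muscle. With both diets averaged, labelled KO against CTRL called no member either, where 0.0% of genes passed in liver, heart and muscle and 3.09% in WAT. In all, 0 of 150 member tests passed in edgeR in the 20 comparisons within a tissue, and 19 had an unadjusted p under 0.05. The share of all genes at that unadjusted level was not taken over the 20 comparisons together, so the 19 are not read further. The calls of DESeq2 and limma in liver and WAT are given above.

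Around the members, 5 lists of partner genes were tested in the same fits, and CTRL liver on HSD showed 1 or 2 changed genes in 4 of the 5, where 4.67% of all genes were called. In labelled-KO liver on HSD 0 genes of the 5 lists passed, where 0.00888% of all genes did. In CTRL liver, 1 of 13 genes of intravascular lipolysis rose: Apoc2, the lipoprotein lipase cofactor, by 1.13 ± 0.20 (adjusted p = 0.0102), with 913.9 TPM on HSD and 383.0 TPM on chow. Of 2 other FABP genes tested, Fabp2, the intestinal FABP, rose by 1.61 ± 0.22 (adjusted p = 0.00197), with 193.8 TPM on HSD and 58.1 TPM on chow. Of 5 other transporters and acyl-CoA synthetases tested, Acsl5 rose by 1.27 ± 0.24 (adjusted p = 0.0111), with 559.5 TPM on HSD and 222.7 TPM on chow.

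Of 10 transcription factors tested there, the coactivator gene Ppargc1a rose by 1.15 ± 0.20 (adjusted p = 0.00712) and the bile acid receptor gene Nr1h4 fell by 0.45 on the log2 scale (adjusted p = 0.0389). No gene of the uptake accessories (caveolae, palmitoylation, endothelial regulators) passed in liver, and Ppara, Pparg and Hnf4a did not pass there. Averaged over the genotypes, Apoc2, Fabp2, Acsl5 and Ppargc1a also rose, and Lmf1, the lipase maturation factor, fell by 0.55 (adjusted p = 0.0121). The list medians in CTRL liver were -0.10 for intravascular lipolysis, 0.48 for the other FABPs, 0.51 for the other transporters and acyl-CoA synthetases, 0.0006 for the uptake accessories and -0.25 for the transcription factors, against -0.02 over all genes.

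In WAT, partner genes of 3 lists passed for HSD against chow in labelled KO, where 6.38% of all genes were called. In labelled KO on HSD, Acsl1, the main acyl-CoA synthetase of fat, rose by 1.03 ± 0.15 (adjusted p = 0.00128), with 935.1 TPM on HSD and 509.1 TPM on chow. Angptl4, an inhibitor of lipoprotein lipase, fell by 0.66 on the log2 scale (adjusted p = 0.0273), with 30.8 TPM on HSD and 53.9 TPM on chow. Of 9 transcription factors tested, Ppara and Pparg rose, Pparg by 0.54 ± 0.12 (adjusted p = 0.0138) with 228.5 TPM on HSD and 172.4 TPM on chow. On chow, labelled KO against CTRL, where 6.68% were called, Acsl4 fell by 0.50 (adjusted p = 0.0443) and Ppara by 0.76 (adjusted p = 0.0437). In heart and muscle no partner passed in any comparison of diet or genotype.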

How the data were processed

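RNA-seq libraries from liver, WAT, heart and muscle were quantified by the submitters with kallisto on GRCm38, per the submitters' processing notes. The deposited tables hold estimated counts, which need not be whole, and the authors' TPM per gene, 64 columns each. Sample names in the columns were matched to the labels. From there, estimated counts were rounded and tested with edgeR 4.0.16 (R 4.3.3): genes were filtered with filterByExpr (minimum count 10), scaled by TMM and fitted by robust quasi-likelihood, with 1 fit of 16 libraries per tissue and 1 of all 64 between tissues, on the group alone. P-values were adjusted by Benjamini-Hochberg over all genes tested in a comparison, with a threshold of 0.05. Standard errors were taken as the size of the log2 fold change over the root of F. TPM served for levels and for limma 3.58.1 on log2(TPM + 1); DESeq2 1.42.0 was another alternative. The 10 members and all lists were chosen with earlier results of these data known. All 10 members are described; values per library are given for members that passed, for the member with the smallest p where none did, and for members whose groups are compared by overlap. Partners are named where they passed, at most 4 per list and comparison, and pattern neighbours are the 2 genes with the highest r, without predicted genes. Library totals ran from 5724366 to 12188623 estimated counts, and the deposited TPM columns sum to 816010 to 926964 per library. None of the 96 replicate pairs were identical, with a chi-square over its degrees of freedom of at least 4.575 for every pair. The largest values, 132.7 to 162.6, were those of liver CTRL chow replicate 1 against the other replicates of its group. Pairs without that library reached at most 52.7. It belongs to the reference group of the liver comparisons with CTRL chow. The procedure was tested on simulated data. Coordinates and shared 31-base stretches are from GENCODE M21, promoters from RefSeq.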

Additional observations from a re-analysis of the deposited data

Results flagged for a closer look

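In 9 of 120 groups of 4 libraries, a single library lay apart from the other 3 by Dixon's ratio at its 95% critical value, while chance alone flags about 1 group in 20. For Fabp5 in liver these were labelled-KO HSD replicate 1, at 116.5 TPM against 857.3 to 955.5 TPM in the other 3, and CTRL chow replicate 3, at 397.2 TPM against 68.2 to 124.0 TPM. Fabp5 in muscle had 24.4 TPM in CTRL chow replicate 4, against 17.6 to 18.5 TPM. Fabp3 had 3.19 TPM in WAT of labelled-KO chow replicate 1 (others 2.09 to 2.19), 1.21 TPM in WAT of labelled-KO HSD replicate 4 (others 2.41 to 2.55) and 5030.5 TPM in muscle of CTRL chow replicate 1 (others 3478.1 to 3583.5). Fabp4 had 20.4 TPM in liver of CTRL HSD replicate 3 (others 16.3 to 16.8) and 672.0 TPM in heart of CTRL chow replicate 1 (others 572.6 to 580.7). Slc27a1 had 0.614 TPM in liver of CTRL HSD replicate 2 (others 0.298 to 0.349).

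The diet effect differed between tissues, by a test of the difference itself, for 3 members. On the log2 scale Fabp5 differed by 1.83 for liver minus WAT, 2.46 for liver minus heart and 2.45 for liver minus muscle. Cd36 differed by 0.94, 0.88 and 0.99 in the same 3 pairs, and Fabp4 by 0.66 for liver minus heart.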

How the results depend on the processing

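Over the 20 planned comparisons within a tissue, the 8 averaged ones and both families between tissues, most counts of members called stayed within 1.5 times under the alternatives. Most of these counts were 0 in the main fit and stayed 0, which shows little about stability. For HSD in CTRL liver, 0 members became 3 by the DESeq2 Wald test and 4 by limma on log2(TPM + 1). There 0 became 1 with a length trend removed (Gpihbp1) or with only the 8 libraries compared (Cd36). For HSD in labelled-KO liver, 0 became 2 by DESeq2. For HSD averaged in liver, 2 became 4 by DESeq2, 5 by limma, 1 without the low-count filter, 1 without CTRL chow replicates 1 and 3, and 0 with the clock score. By limma, 0 became 2 in WAT for HSD in CTRL, 2 in WAT averaged and 2 in heart averaged, and by DESeq2 1 in WAT averaged and 1 in muscle averaged. The 7 differences in the HSD effect between tissues became 11 by limma. The causes were not tested.

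Leaving out 1 library gave 0 to 1 calls for HSD in CTRL liver, 0 to 1 in labelled-KO liver, 1 to 3 averaged in liver, 0 to 1 averaged in WAT, 46 to 53 for tissue levels and 6 to 9 for the HSD effect between tissues. Values that changed sign were, with the clock score, Slc27a1 in WAT for labelled KO against CTRL on HSD (-0.63) and for HSD in labelled KO (-0.54), and Fabp5 in heart for HSD in labelled KO (0.087). By limma they were Fabp3 (-0.47) and Fabp5 (-0.92) in liver over WAT, Fabp1 (0.21) and Slc27a5 (0.10) in WAT over heart and Slc27a5 in WAT over muscle (0.0268). Slc27a5 in WAT over heart was 0.17 without the libraries whose values trended with transcript length (4 of 64), and -0.78 to 0.14 in leave-one-out fits, where Slc27a2 in that pair ran from -0.0406 to 1.40.

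Title numbers run from 1 to 16 in each tissue, and each stands for the same genotype and diet in all 4, but nothing states that they mark a mouse. Same-numbered libraries of 2 tissues correlated at -0.08 to 0.39, and 67 of 96 matched their own number best. Among the 4 libraries of a group, chance alone would match 1 in 4, so equal numbers went together more often than that. The main fit between tissues took all libraries as independent. Its standard errors and adjusted p therefore make no allowance for mice shared between tissues. They also rest on 1 estimate of spread per gene over tissues of unequal spread. With the title number as a replicate block, 9 differences in the HSD effect passed in place of 7, with Fabp4 added for liver minus muscle (0.52, adjusted p = 0.0215) and WAT minus heart (0.49, adjusted p = 0.0276), and 51 tissue levels in place of 52. Slc27a1 in liver had at most 26.65 counts per library.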
